A study of Phaseolus vulgaris
Paraburkholderia phymatum STM815 with 4 samples.

Results

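Among the transcripts of common bean (*P. vulgaris*) root nodules, 81 features were detected in nodules formed by wild-type *P. phymatum* and had almost no reads with its *nifA* mutant. A feature is 1 coding region of the bean genome. A member had at least 100 unique gene reads in both wild-type libraries and at most 3 in both *nifA* libraries. Unique gene reads are taken here as reads assigned to 1 feature only. Reads that map to several places or fall in overlapping features may be left out of them. The rule kept 81 of 32574 bean features, and 81 of the 7429 features (1.09%) that reached 100 reads in both wild-type libraries. The members were chosen by their unique reads in these same 4 libraries, so the low *nifA* reads given here are a description and carry no test.

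All nodules came from *P. vulgaris* cv. Negro Jamapa, grown without added nitrogen and harvested at 21 dpi. The wild-type group held nodules occupied by *P. phymatum* STM815, and the *nifA* group held nodules occupied by a mutant of the same strain in which a plasmid was integrated into *nifA*. Each group had 2 libraries, described in the methods as independent biological replicates, from 1 mutant strain and 1 time point. The plant was the same in both groups, so every difference is between nodules of 1 host with different occupants. The names of the deposited tables carry different dates for the 2 strains, so date and strain cannot be told apart.

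Legume nodules are root organs in which rhizobia inside plant cells reduce atmospheric nitrogen to ammonia in exchange for carbon. NifA is the bacterial activator of the nitrogenase genes, and a strain without it forms nodules that do not fix nitrogen (Fix−). Bean nodules are of the determinate type, and infected cells of a working nodule are known for leghemoglobin, which binds oxygen, while neighbouring uninfected cells take part in making the ureides in which fixed nitrogen leaves the nodule. In bulk nodules, fewer cells of a type and less RNA per cell cannot be told apart.

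For wild-type nodules, 8526065 and 14004263 unique bean reads were obtained, and for *nifA* nodules 14169013 and 10640013. The 10 most abundant features took 16.2% and 40.1% of them for the wild-type and 69.5% and 54.7% for the mutant, so fewer reads remained for other features in the latter. *nifA* replicate 1 also stood apart at low levels, with 203 features at 4 to 9 reads against 1507 to 1987 in the other libraries, and with 20421 features at 0 against 13879 to 15481. Bean identifiers could be paired with a locus for 1998 features, all on chromosomes 10 and 11, and 128 of these had a description. No marker of infected or uninfected nodule cells, pollen, seed, green tissue, xylem or root epidermis was among those described. The labelled tissue was thus not checked by markers here. The *nifA* gene itself had 4036 and 3301 unique reads with the wild-type and 2562 and 2491 with the mutant, which is 771 and 501 against 2088 and 1715 CPM of unique *P. phymatum* reads. This checks no label because the gene is interrupted in the mutant and not removed.

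The members were spread over a wide range of wild-type levels and were close to empty in the mutant nodules. Over the 81 members, unique reads in wild-type replicate 1 ran from 100 to 7923 with a median of 236, and in wild-type replicate 2 from 103 to 7512 with a median of 310. Their summed reads were 42306 and 52764 in wild-type nodules, against 3 and 46 in *nifA* nodules. In CPM, which scales reads to the total unique bean reads of a library, this is 4962 and 3768 against 0.212 and 4.32. Of the 81, 55 had 0 reads in both *nifA* libraries. In *nifA* replicate 1, 78 members were at 0, and in *nifA* replicate 2, 57 were. Only ESW16307, singled out after its values were seen, had a read in both, with 821 and 1567 wild-type reads against 1 and 3.

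**Figure D1:**
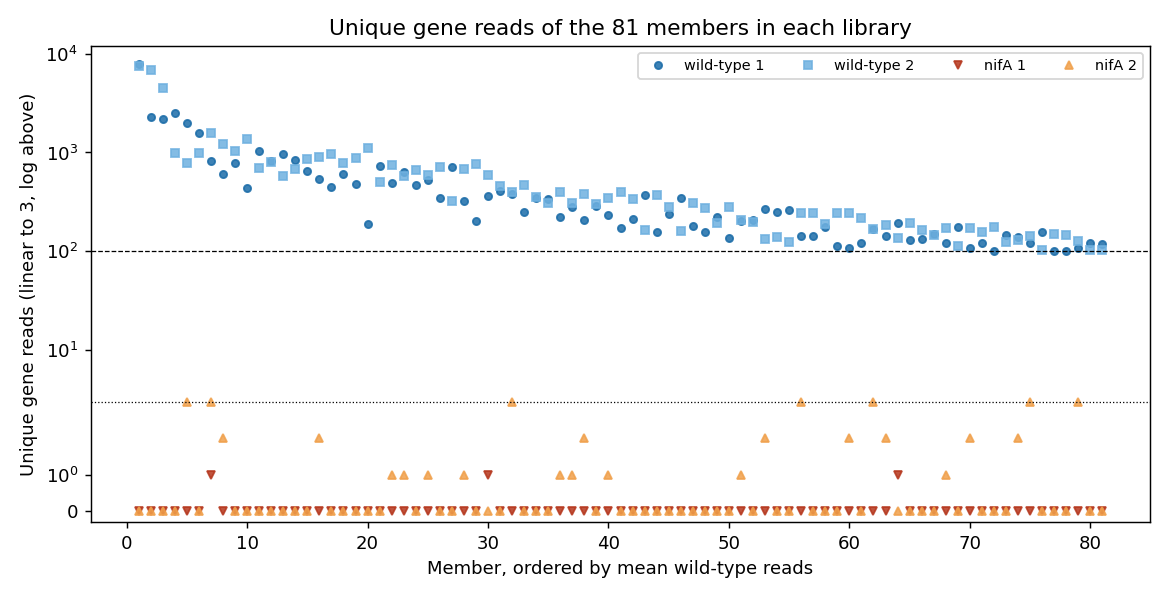
Unique gene reads of each member in the 4 libraries (y axis, linear up to 3 and logarithmic above), with members ordered by mean wild-type reads on the x axis and the thresholds of 100 and 3 reads as dashed and dotted lines. Each point is 1 library; the wild-type points lie between 100 and 7923 reads and the *nifA* points between 0 and 3, most of them at 0, because the rule required it.

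The 5 members with the highest mean wild-type TPM included both short and ordinary features. In the deposited TPM, library size and genomic span are divided out. The span includes introns, so long introns lower a TPM. ESW11279 lies on the forward strand of chromosome 8 (1405871 to 1406188), with 2536 and 991 unique wild-type reads and 0 in both *nifA* libraries. Its TPM was 886 and 119. TPM is a share of its library, and 1 non-member, ESW04729, took 206806 and 416960 TPM of wild-type replicates 1 and 2. TPM values are therefore not compared between libraries here. Scaled to TMM effective library sizes, which discount the most abundant features, ESW11279 was 3.19-fold higher in replicate 1, a wider gap than in most members. ESW23047 lies on the reverse strand of chromosome 4 (1497150 to 1497718), with 2266 and 6866 wild-type reads and 0 in both *nifA* libraries. Its TPM was 442 and 463, and its scaled level was 2.43-fold higher in replicate 2.

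ESW26872, on the forward strand of chromosome 3 (36052666 to 36054090), had the most reads of any member. Its wild-type counts were 7923 and 7512 and both *nifA* counts were 0, with a TPM of 618 and 202. The scaled level was 1.32-fold higher in wild-type replicate 1. With 3 reads in each empty *nifA* library as the limit of detection, the lower bound on the fold difference in CPM was 2969, and it was 1665 when TMM effective library sizes, which discount the most abundant features, replaced the total reads. Low counts are largely lacking in *nifA* replicate 1, so a 0 there may hide more than 3 reads. With *nifA* replicate 2 alone the bounds were 2599 and 1821. The 2 members with the most wild-type reads among those at 0 in both *nifA* libraries were ESW26872 and ESW23047, and for ESW23047 the bounds from *nifA* replicate 2 alone were 1341 and, with effective sizes, 1015.

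ESW04619 (locus PHAVU_011G110800g), on chromosome 11 from 14321143 to 14321415, and ESW29338, on chromosome 2 from 6893896 to 6894066, completed the 5. ESW04619 had 1035 and 696 wild-type reads with a TPM of 421 and 97.7, and a scaled level 1.86-fold higher in replicate 1. ESW29338, the shortest member at 171 bases, had 212 and 338 wild-type reads with a TPM of 138 and 75.8. Its scaled level was 1.28-fold higher in replicate 2. Both were at 0 in the 2 *nifA* libraries.

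Over the 55 members without a *nifA* read, the lower bound on the fold difference in CPM ran from 42.8 to 2969 with a median of 106. With TMM effective sizes the bounds ran from 23.9 to 1665 with a median of 58.7, so the size of the bound depends on how the most abundant features are counted. With *nifA* replicate 2 alone, which does not rest on the zeros of replicate 1, the medians were 92.6 and, with effective sizes, 64.2. These bounds cover counting in the empty libraries and not the spread between the wild-type replicates. For the 26 members with 1 to 4 reads over both *nifA* libraries, the ratio of pooled CPM was 85.5 to 1363 with a median of 404, and the lower ends of the exact 95% intervals, which cover counting error only, ran from 28.9 to 347. With effective library sizes these ratios were 49.9 to 795 with a median of 236, and the lower ends of their intervals ran from 16.9 to 203. The ratios pool both *nifA* libraries and so also take the zeros of replicate 1 as read.

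The wild-type libraries gave like levels for most members. After scaling to effective library size, 68 of 81 members (84.0%) were within 2-fold between the wild-type replicates, beside 6642 of the 7348 other features with 100 reads in both (90.4%). Of the members, 40 were higher in replicate 1 and 41 in replicate 2. The widest gap was that of ESW14512 on chromosome 8, singled out after its values were seen, with 188 and 1098 reads, a 4.68-fold higher scaled level in replicate 2. In the other direction ESW25956 on chromosome 3 had 1993 and 775 reads, 3.21-fold higher in replicate 1, and it had 0 and 3 reads in the *nifA* libraries.

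**Figure D2:**
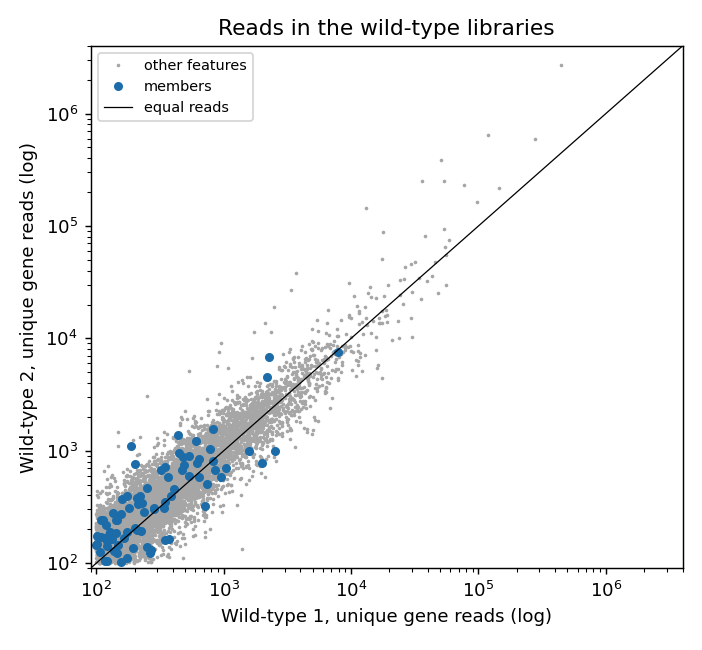
Unique gene reads in wild-type replicate 1 (x axis, log) and replicate 2 (y axis, log) of features with at least 100 reads in both, with members in blue, other features in grey and the line of equal reads. Members lie on both sides of the line within the cloud of other features, and ESW14512 is the member farthest above it.

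The members were short compared with the other features that had at least 100 reads in both wild-type libraries. Span was not compared within a level of abundance. Their genomic span, introns included, ran from 171 to 9134 bases with a median of 1761, beside a median of 3564 over the other 7348 features. A span under 1000 bases was found for 20 members (24.7%) and for 666 of the others (9.06%). Their median level was 27.7 and 22.1 CPM in the wild-type libraries, below the 41.1 and 30.4 CPM of the others. In TPM the order was reversed in both wild-type libraries, with a median of 7.21 TPM against 4.85 TPM in replicate 2. TPM divides by genomic span with introns, and the others had longer spans, so this reversal does not give an order per transcript length. No member overlapped another feature, beside 201 of the 7348 others and 8366 of all 32574 features. Unique reads were often lacking where features overlap: 1631 of the 9310 features with 100 reads of any kind in both wild-type libraries had no unique read in any library, and 1623 of those overlapped another feature. Such features could not become members.

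All gene reads add reads that are not unique to 1 feature. When they were used, 100 features met the same thresholds, and 80 of the 81 members were among them. The exception was ESW22726 on chromosome 5, which had 193 and 135 unique wild-type reads against 1 and 0. Its reads of all kinds were 1078 and 2600 against 285 and 25, so most of its signal was shared with another place in the genome. For 74 members every read was unique in all 4 libraries. The 20 features that met the thresholds with all gene reads only, 16 of them without a unique read, included ESW04730, a feature of 210 bases on chromosome 11 with 11095 and 7338 shared reads in the wild-type libraries and 0 in both *nifA* libraries. Such reads may be shared between places in the genome or between overlapping features, and which feature they come from cannot be told apart. ESW16505 (39043700 to 39046802) and ESW16506 (39044103 to 39046802), both among the 20, overlap on the forward strand of chromosome 7.

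The 5 members that could be paired with a locus were all listed as hypothetical protein, so no function is given for any member. Besides ESW04619, these were ESW06213 (PHAVU_010G029200g), ESW05471 (PHAVU_011G1818000g), ESW05760 (PHAVU_011G207200g) and ESW05990 (PHAVU_010G010200g). ESW06213, on the reverse strand of chromosome 10 (4286913 to 4288227), had 249 and 138 wild-type reads and 0 in both *nifA* libraries. ESW05760, on chromosome 11 from 48736002 to 48738075, had 173 and 397 wild-type reads and 0 in both *nifA* libraries.

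ESW05471, on the forward strand of chromosome 11 (45820255 to 45822411), had 209 and 378 wild-type reads against 0 and 2 with the mutant. The feature 2464 bases before it, ESW05470, carries a locus name that differs in its last digit only (PHAVU_011G1818001g) and was not a member. ESW05470 had 5605 and 3773 wild-type reads against 100 and 76, so the groups did not overlap at either feature of this pair of loci, but reads remained at the more abundant one.

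Only 12 of the loci that the study discusses were looked up, because identifiers could be paired on some of the chromosomes only. Its loci on the other chromosomes were not checked for membership. Of the 12 loci, 10 could be paired with a feature and none of these 10 was a member. Among them was ESW06483 (PHAVU_010G051500g), a PIN-like auxin transporter, of the family of membrane proteins that move the hormone auxin between or within cells. It had 1143 and 1583 wild-type reads against 20 and 3. ESW04909 (PHAVU_011G135900g), which encodes a CLE peptide of the kind through which nodule number is limited by a signal to the shoot, had 320 and 452 wild-type reads and 46 and 0 *nifA* reads. Both had fewer reads in each *nifA* library than in each wild-type library and over 3 reads in *nifA* replicate 1. In the edgeR fit ESW06483 was called lower (adjusted p = 0.0291, log2 fold change of −6.17 with SE 0.84), and ESW04909 was not (adjusted p = 0.336, log2 fold change of −3.31 with SE 1.42). Of the 10 paired loci, 9 had fewer reads in both *nifA* libraries and 1 had more. The latter was ESW05117 (PHAVU_011G153400g), a GH3 enzyme, of a family that joins auxin and other hormones to amino acids. It had 956 and 976 wild-type reads against 1893 and 2545 (edgeR adjusted p = 0.0756). Only ESW06483 of the 10 was called. Outside their 10 most abundant features, the *nifA* libraries had 4327936 and 4821273 reads against 7141838 and 8384117 with the wild-type. The share of all features with fewer reads in both *nifA* libraries is not given here, so the 9 carry no weight as a count. The study chose these loci on these samples, so their direction is not independent evidence. Among the 128 paired features with a description, 1 matched the words fixed for nodule functions. This was ESW04821, a mitochondrial aspartate aminotransferase of nitrogen assimilation, with 785 and 929 wild-type and 796 and 830 *nifA* reads, which did not pass the test (log2 fold change of 0.57 with SE 0.33, edgeR adjusted p = 0.515).

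The 4 libraries did not weigh equally in the choice. Of the 7429 features with 100 reads in both wild-type libraries, 398 (5.36%) had at most 3 reads in *nifA* replicate 1 and 103 (1.39%) in replicate 2. The members were thus 20.4% of the features that were low in replicate 1 and 78.6% of those that were low in replicate 2. Without *nifA* replicate 1 the rule would have kept 103 features, without *nifA* replicate 2 it would have kept 398, without wild-type replicate 1 it would have kept 134 and without wild-type replicate 2 it would have kept 102.

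These counts also show each library for features that it did not help to choose. Of the 398 features chosen without *nifA* replicate 2, 317 had more than 3 reads in it, with a median of 34 among these and a highest count of 253. Of the 103 chosen without *nifA* replicate 1, 22 had more than 3 reads in it, with a median of 26 among these and a highest count of 179. Of the 102 chosen without wild-type replicate 2, 81 reached 100 reads in it, 99 reached 10 reads and 1 had none. Of the 134 chosen without wild-type replicate 1, all 134 reached 10 reads in it and 81 reached 100. For the wild-type libraries the matching shares over all features are not given here, so these counts set no level of agreement. A feature low in *nifA* replicate 1 alone was therefore often detected in *nifA* replicate 2, and the lack of low read counts in replicate 1 moves with this result; its part in the result was not tested.

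**Figure D3:**
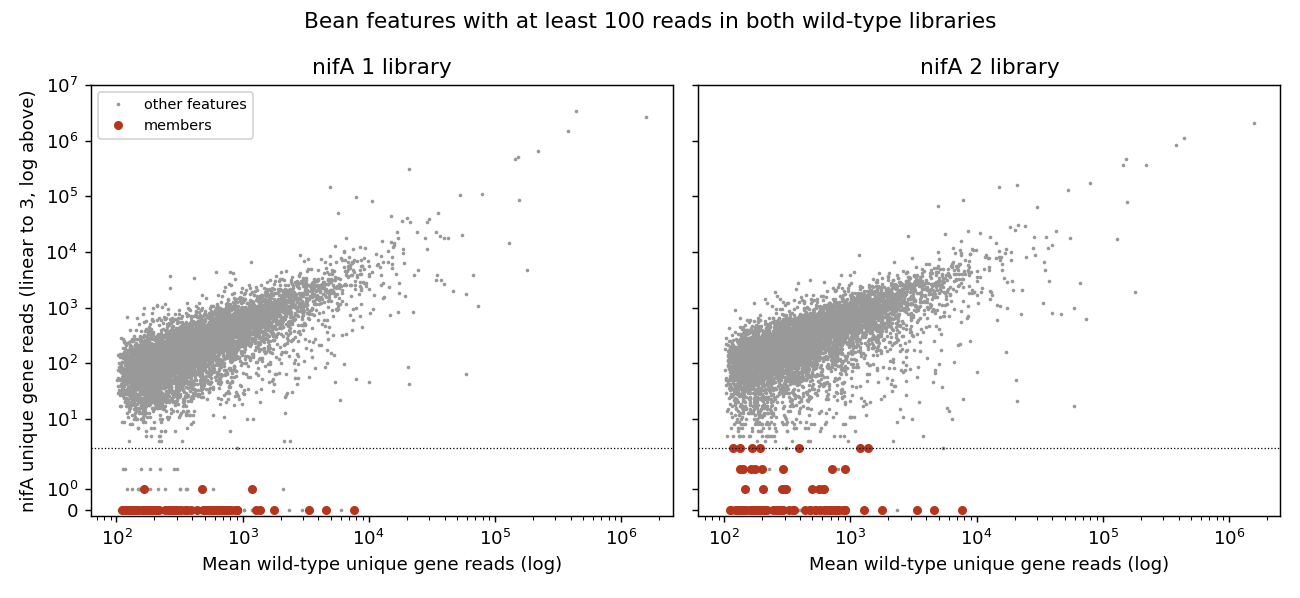
Unique gene reads in each *nifA* library (y axes, linear up to 3 and logarithmic above) against mean wild-type reads (x axes, log) for the 7429 features with at least 100 reads in both wild-type libraries; members are red, others grey, and the dotted line marks 3 reads. In the *nifA* replicate 1 panel, 372 features lie at 0 and 31 at 4 to 9 reads, and in the replicate 2 panel 72 lie at 0 and 83 at 4 to 9 reads.

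The share of features at or under 3 reads was lower at each higher wild-type level in *nifA* replicate 1, and was lower in replicate 2 than in replicate 1 at every level. Among features whose lower wild-type count was 100 to under 200, 10.4% were at most 3 in replicate 1 and 2.17% in replicate 2, and 39 of 2257 were members. At 200 to under 500 reads these shares were 4.52% and 1.18%, with 23 members of 2632 features. At 500 to under 1000 reads they were 2.69% and 1.30%, with 16 members of 1303 features. At 1000 reads or more they were 0.728% and 0.485%, with 3 members of 1237 features. The 3 were ESW26872, ESW23047 and ESW13917, a feature on chromosome 8 from 55143143 to 55146327 that had 2205 and 4505 wild-type reads and 0 in both *nifA* libraries. Over all features of this highest level the median was 1007 and 1174 reads in the *nifA* libraries, beside 0 for these 3.

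**Figure D4:**
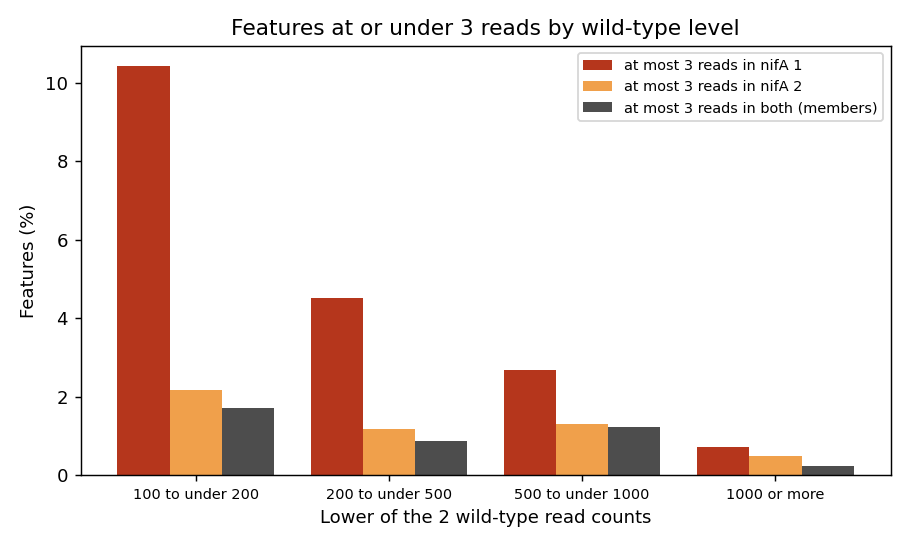
Share of features (y axis, percent) with at most 3 reads in *nifA* replicate 1, in replicate 2 and in both, by the lower of the 2 wild-type read counts (x axis). Bars are shares of all features of that level; the bars for replicate 1 go down from 10.4% to 0.728%.

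At the limits of the rule the members passed into their neighbours in level without a gap. The member with the lowest wild-type count was ESW05990, with 100 and 146 wild-type reads and 0 in both *nifA* libraries, followed by ESW26436 with 101 and 148 and by ESW12770 with 101 and 175. Just outside, ESW16569 had 99 and 137 wild-type reads against 0 and 3, and ESW35503 had 96 and 114 against 0 and 2. On the *nifA* side, 7 members had 3 reads in 1 library and 6 features were left out for having 4. The most abundant of the 6 were ESW28913, with 2236 and 2485 wild-type reads against 4 and 0, and ESW34007, with 974 and 932 against 0 and 4.

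The members lay on all 11 chromosomes. Chromosome 2 held 14, chromosome 8 held 13 and chromosome 3 held 12, while chromosomes 6 and 11 held 3 each. As a share of the features with 100 wild-type reads this ran from 0.503% on chromosome 6 to 1.77% on chromosome 4, and 48 members were on the forward strand and 33 on the reverse. Of the 7429 features with 100 reads in both wild-type libraries, 6275 had the start of another of them within 50 kb. That set is far denser than the members, so its count sets no level for them. Among the members alone, a start within 50 kb of another member's start was found for 2. The 2 were ESW23046 and ESW23047 on chromosome 4, both on the reverse strand and 2137 bases apart. ESW23046, from 1493910 on, had 435 and 1369 wild-type reads and, like ESW23047, 0 in both *nifA* libraries, and both were higher in wild-type replicate 2.

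The features next to the members had reads in both groups in most places. Taking the nearest feature with 100 wild-type reads on each side of each member gave 162 neighbours, at a median distance of 28322 bases from end to end. Of these, 144 (88.9%) had more than 3 reads in both *nifA* libraries, beside 94.3% of all 7429 features, and 6 were themselves members. The median log2 ratio of *nifA* over wild-type CPM, with a pseudocount of 0.1 CPM and effective library sizes, was −0.30 over the neighbours. It was −0.20 over features with at least 100 reads in both wild-type libraries. The neighbours of ESW26872, for example, were ESW26871 with 4277 and 3351 wild-type and 1426 and 766 *nifA* reads, and ESW26874 with 695 and 669 against 193 and 691. Several neighbours were exceptions, and those named here were chosen after their values were seen. On chromosome 2, ESW28914, a member with 956 and 578 wild-type reads and 0 in both *nifA* libraries, follows ESW28913 by 2601 bases. ESW24730, beside the member ESW24731, had 270 and 227 wild-type reads against 0 and 5. ESW22725, beside the member ESW22726, stayed above 3 reads but had 54447 and 64427 against 65 and 17.

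**Figure D5:**
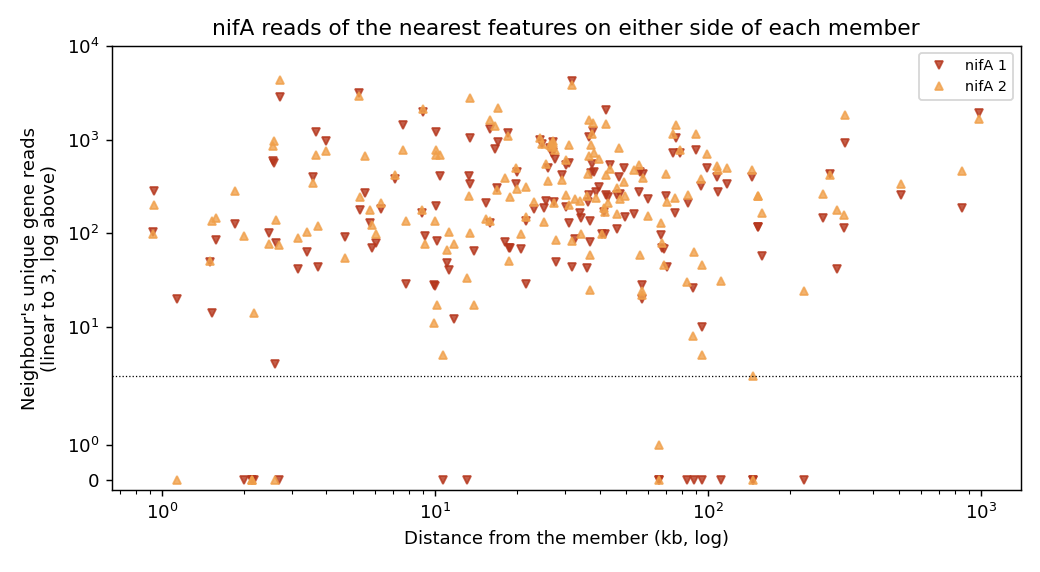
Unique gene reads in the *nifA* libraries (y axis, linear up to 3 and logarithmic above) of the nearest feature with at least 100 wild-type reads on either side of each member, against the distance between the features (x axis, kb, log). Each neighbour has a point for each *nifA* library, and 144 of 162 lie above the dotted line of 3 reads in both.

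In the fit over all bean features (edgeR's quasi-likelihood test on 15507 features), 214 features (1.38%) were lower in *nifA* nodules at an adjusted p under 0.05 and 27 were higher. All 81 members entered the fit and 58 of them were called lower, which the rule brings about, since it used the same contrast. At an unadjusted p of at most 0.02 and a log2 fold change of at least 1 in size, the limits the study used with another test, 1023 features (6.6%) were lower and 81 of 81 members were among them. Without *nifA* replicate 2 the fit called 2455 features lower, without *nifA* replicate 1 it called 949, without wild-type replicate 1 it called 425 and without wild-type replicate 2 it called 470. The count of members called was 23 when all gene reads were tested and 0 when 10 reads were required in every library, since no member could enter that fit.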

How the data were processed

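Reads came from 4 nodule libraries, 2 per strain, in which plant ribosomal RNA had been depleted. The authors trimmed single-end reads, mapped them to the 11 bean chromosomes with CLC Genomics Workbench and deposited, per coding region, counts of unique and of all gene reads. The name of the genome build is not given in the sources used here, and coordinates are those of the files. TPM and RPKM values, which divide out length and library size, were deposited by the authors as well; TPM was used to describe levels and RPKM was not used. The deposited gene length (a column of another kind) equals the span of the region, introns included, and is the length that TPM divides out.

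Unique reads were joined by feature name. TMM factors, filterByExpr, glmQLFit and glmQLFTest of edgeR 4.0.16 (R 4.3.3) gave the fit with Benjamini-Hochberg adjusted p, and DESeq2 1.42.0 was an alternative. CPM is reads scaled to the total unique bean reads of a library. Unique bean reads per library numbered 8526065 to 14169013, and 3 reads equal 0.212 to 0.352 CPM. With 2 libraries per group precision is low. Intervals and floors cover counting error only.

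The members and lists were chosen with earlier results of these data known. Named features were the paired members, the 5 with the highest mean wild-type TPM, those in the longest run of neighbours, those nearest each threshold and the 2 with the most wild-type reads among members at 0; others were chosen after their values were seen. Identifiers were paired through a supplementary table of the paper, which was shortened, for 1998 features; 0 features matched the reference gene table. Alternatives were other thresholds, all gene reads, scaled reads, RLE or upper-quartile factors, no filter, 10 reads in every library, DESeq2, a replicate block, the study's limits and leaving out each library. The *P. phymatum* genes other than *nifA* were not used, nor were values of the paper's supplement.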

Additional observations from a re-analysis of the deposited data

How the results depend on the processing

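The number of members was 166 with 50 wild-type reads, 42 with 200, 133 with up to 10 *nifA* reads and 49 with reads scaled to the smallest effective library, an alternative added after seeing the data. It ranged from 102 to 398 when 1 library was left out, with 398 without *nifA* replicate 2 and 134 without wild-type replicate 1. Features lower in *nifA* nodules numbered 214, against 1012 with no filter, 385 with 10 reads in every library, 915 with DESeq2, 57 with all gene reads, 1023 at the study's limits and 425 to 2455 with 1 library left out (2455 without *nifA* replicate 2). Features higher numbered 27, against 340, 160, 316, 4 and 387 in the same order and 86 to 458 with 1 library left out. Members called lower numbered 58, against 0 with 10 reads in every library, 23 with all gene reads and 54 to 81 under the other settings; with 1 library left out they numbered 60 to 81. Members within a run numbered 4 at 100 kb and 4 with all gene reads. Those added with all gene reads were ESW16505 and ESW16506, which overlap each other on the same strand and are not separate neighbours. The median fold bound was 106, against 58.7 with effective library sizes, 92.6 without *nifA* replicate 1 and 64.2 with both changes, all added after seeing the data. The 1 feature of the nodule function list was not called under any alternative run for it. With a replicate block, 495 features were lower, 118 higher and 73 members lower; the replicates share only a number, and the correlation of their deviations was 0.059. The causes of these differences were not tested, apart from members that could not enter a fit.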
